A study of Mus musculus with 16 samples.

Results

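Desmosomal cadherins and corneodesmosin, the adhesion proteins that join the keratinocytes of the epidermis, were followed here as 10 genes, Dsc1, Dsc2, Dsc3, Dsg1a, Dsg1b, Dsg1c, Dsg2, Dsg3, Dsg4 and Cdsn. They were chosen by gene symbol, as the rows of the deposited count table whose Ensembl identifiers carry these names in GENCODE release M21. All 10 were among the 50600 genes of the table and all 10 were among the 22155 genes with enough reads to be tested. The libraries came from footpad epidermis of female C57/B6J mice, 1 library for each animal and 4 animals in each of 4 groups. From 5 wk of age and for 3 wk, the mice ate a purified diet poor in ligands of the aryl hydrocarbon receptor (AhR-poor diet), or that diet with indole-3-carbinol added at 200 ppm (I3C diet), a plant compound that the body turns into AhR ligands. The footpad was then injected with 50 µl of PBS (vehicle) or with 50 µg of the plant protease papain, an allergen, and epidermal cells were taken 6 hr later after dispase separation and removal of dead cells. No group carried a transgene or a deleted gene. Animals on the same diet were caged together, so diet and cage cannot be told apart.

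Desmosomes are junctions in which desmogleins (Dsg) and desmocollins (Dsc) of neighboring cells bind each other outside the membrane, while plaque proteins such as plakoglobin, plakophilins and desmoplakin tie them to keratin filaments inside. In epidermis the cadherins are layered, with Dsg3 and Dsc3 strongest in the lower layers and Dsg1 and Dsc1 strongest in the upper ones, whereas Dsg2 and Dsc2 also serve simple epithelia and Dsg4 belongs mainly to hair. Corneodesmosin (Cdsn) is a secreted protein that is added to desmosomes in the granular layer, where they become the corneodesmosomes of the cornified layer, which kallikreins later cut so that cells can be shed. The question that the design puts to these genes is how their transcript levels differed after an injected protease and between diets with and without a source of AhR ligands.

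Cdsn lies on the plus strand of chromosome 17 at bases 35552128 to 35557180 of GRCm38, in 2 exons. Its promoter is shown because Cdsn was higher on the AhR-poor diet as the mean of both injections, a result given further on, and because the receptor that the diet feeds binds DNA at a known core. The 250 bases before its start, chr17:35551878-35552127 (GRCm38.p6, plus strand, from RefSeq), read 5′ to 3′ as follows, with no capitals since the AhR response element core had no match in them.
Cdsn promoter: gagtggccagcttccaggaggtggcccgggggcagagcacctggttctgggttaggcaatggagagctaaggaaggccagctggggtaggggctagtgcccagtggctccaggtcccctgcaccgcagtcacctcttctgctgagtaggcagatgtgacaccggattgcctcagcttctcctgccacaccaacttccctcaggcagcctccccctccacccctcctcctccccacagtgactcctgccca
The core searched was GCGTG on either strand (CACGC on the other), which 28.2% of the 32851 RefSeq promoter windows of this length held. A window before an upstream start of Cdsn that RefSeq also lists held no match either. These letters were absent from these windows only, and nothing follows about binding elsewhere.

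The 9 cadherin genes lie elsewhere, in 1 cluster on mouse chromosome 18 between bases 19960930 and 20604521 of GRCm38. Dsc3, Dsc2 and Dsc1 lie on the minus strand in that order, and Dsg1c, Dsg1a, Dsg1b, Dsg4, Dsg3 and Dsg2 follow on the plus strand. The mouse carries 3 copies of Dsg1 with closely related sequence. Over aligned coding bases, Dsg1a was 97.0% identical to Dsg1b and 96.0% identical to Dsg1c, and Dsg1b was 95.5% identical to Dsg1c, whereas every other pair of cadherins lay between 59.3% and 67.1%. Stretches of 100 bases, the read length, were taken over 1 whole transcript of each gene, untranslated bases included. Of these, 31.6% of those in Dsg1b occurred unchanged in Dsg1a, and 21.9% of those in Dsg1a occurred in Dsg1b. The counts of the Dsg1 copies are therefore uncertain with respect to each other, since the way shared reads were counted is not given in the sources used here. Dsg2 shares 330 of its 8268 exonic bases with Gm16090, an antisense gene on the other strand that had 0 to 5 counts in a library. Whether reads in the shared bases were left out of the Dsg2 count is not given in the sources either.

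Library totals ranged from 22500821 to 51844375 counts, and 3 counts, taken as the detection floor, equaled 0.0569 to 0.130 CPM (counts divided by the scaled library total, times 1000000), which reflects counting error alone. The keratins and other markers of basal and suprabasal keratinocytes were abundant in every library, at summed levels of 21070 to 37270 and 20930 to 44030 CPM, as epidermis calls for. Of the 2 markers of volar (footpad) keratinocytes, Krt9 was higher on the AhR-poor diet with papain (log2 difference 4.38, adjusted p = 0.00199). It fell after papain on the I3C diet (-2.64, adjusted p = 0.0255). Krt2 did not pass between the diets and fell after papain on the AhR-poor diet (-0.71, adjusted p = 0.0175). Summed levels of markers of other cells differed between the groups. The 10 dermal fibroblast markers summed to 174 to 260 CPM with vehicle and 454 to 866 CPM with papain on the AhR-poor diet, against 77.5 to 102.3 and 156 to 166 CPM on the I3C diet, where Mfap5 was at or below the floor in every library. On the I3C diet the list did not rise as a whole after papain (4 of 10 positive, median log2 fold change -0.24): Thy1, which T cells also express, rose (0.96, adjusted p = 9.3e-06), Dcn fell (-1.73, adjusted p = 0.00747) and the other 8 did not pass. All 10 were differentially expressed after papain on the AhR-poor diet, and 9 of 10 were higher on the AhR-poor diet under either injection. Endothelial markers (8 of 8 higher on the AhR-poor diet with papain, at 26.1 to 65.1 against 0.742 to 2.34 CPM) and Langerhans cell markers (6 of 7, at 941 to 1152 against 377 to 796 CPM) moved the same way. Neutrophil markers summed to 87.5 to 568 CPM with papain against 9.39 to 11.6 with vehicle on the AhR-poor diet (7 of 7 rose), and to 50.9 to 92.3 against 1.64 to 4.74 CPM on the I3C diet (4 of 7 rose). Markers of dendritic epidermal T cells, Thy1 among them, were summed too. On the AhR-poor diet they had 207 to 296 CPM with papain against 89.3 to 118 with vehicle (2 of 6 rose). On the I3C diet they had 169.5 to 199 against 89.2 to 114.2 CPM (1 of 6 rose, which was Thy1). Among all tested genes, 17.7% rose after papain on the AhR-poor diet and 16.9% on the I3C diet. The fibroblast sum also holds Thy1, so with papain on the I3C diet both sums do not stand for separate cell types. The part of these cells in the results below was not tested beyond 1 fit that held the fibroblast signal as a covariate. In these mixed cells, fewer cells of a type and less RNA per cell cannot be told apart.

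In mice given vehicle, the cadherins spanned more than 3 orders of magnitude. Dsg1a and Dsc3 stood at the top and did not differ beyond their spread. Per kilobase of merged exon, Dsg1a had a level of 310 ± 61.3 CPM per kb (SD, n = 4) on the AhR-poor diet and 293 ± 35.4 on the I3C diet, and Dsc3, the desmocollin of the lower layers, had 305 ± 53.6 and 318 ± 63.7. Dsc1, the desmocollin of the upper layers, followed at 106.1 ± 45.4 and 86.3 ± 23.1 CPM per kb, with no overlap with the genes above or below it. Dsg1b was next at 39.9 ± 12.4 and 39.0 ± 9.27, and its range overlapped that of Cdsn or Dsg3, whichever came next. Cdsn had 28.7 ± 8.59 CPM per kb on the AhR-poor diet and 12.8 ± 5.86 on the I3C diet, and Dsg3 had 19.3 ± 2.66 and 27.5 ± 11.7. Dsg2 at 5.19 ± 0.507 and 6.11 ± 1.97 and Dsc2 at 1.81 ± 0.115 and 1.86 ± 0.353 were present at low levels in every library. The third Dsg1 copy, Dsg1c, stayed at 0.144 ± 0.0780 and 0.106 ± 0.0488 CPM per kb (6 to 38 counts in a vehicle library). Dsg4, the hair desmoglein, was at the edge of detection, with 0 to 15 counts in the 8 vehicle libraries.

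**Figure D1:**
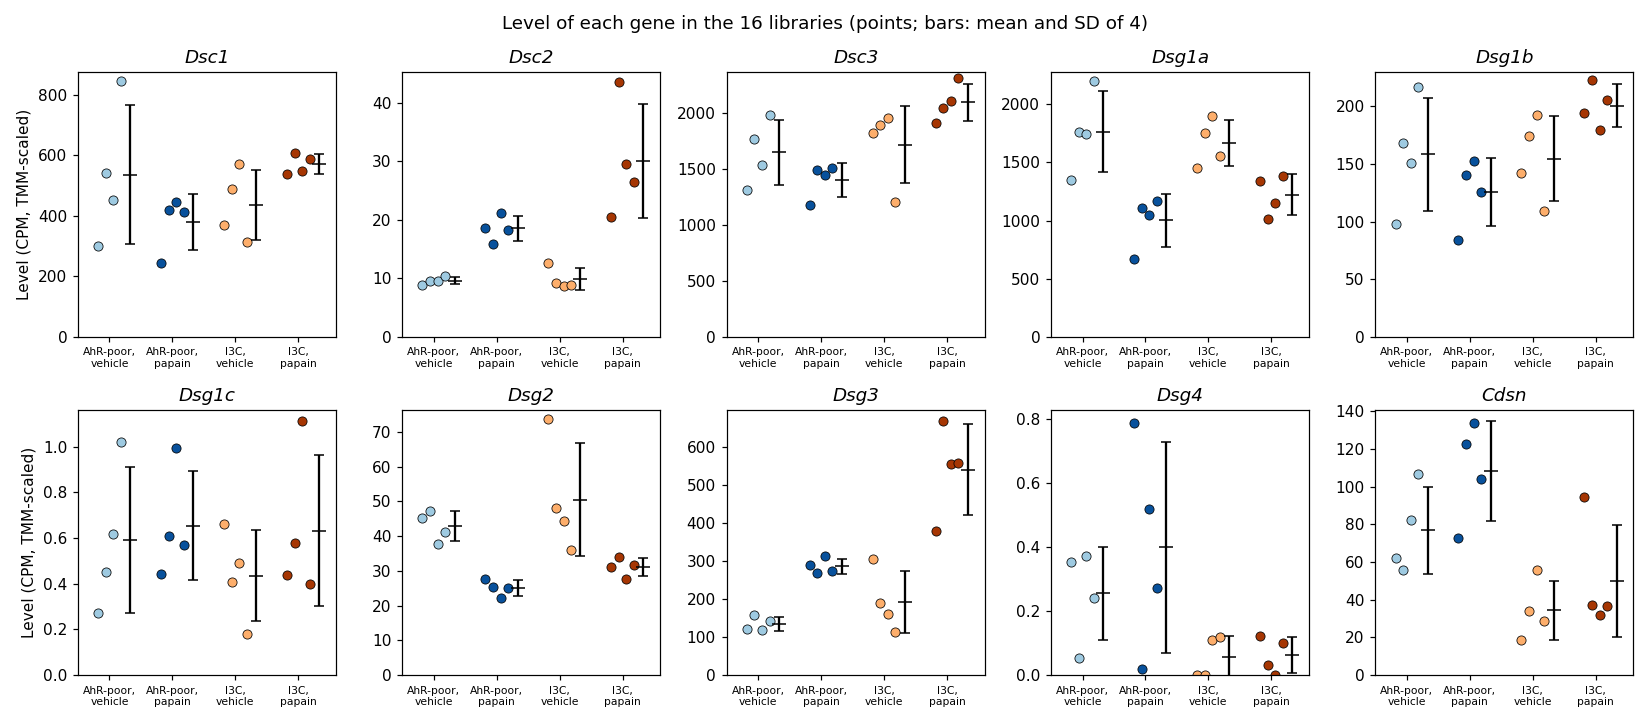
Level of each of the 10 genes in CPM (y axis, each panel from 0 on its own scale) in the 16 libraries, by group (x axis). Points are libraries and bars are the mean and SD of 4, cut at 0 for Dsg4; after papain, all libraries lay above those with vehicle for Dsc2 and Dsg3 and below them for Dsg1a and Dsg2, on each diet.

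After papain, Dsg3 and Dsc2 rose and Dsg1a and Dsg2 fell, on both diets. By the quasi-likelihood test of edgeR with Benjamini-Hochberg adjustment over all tested genes, 2 of the 10 genes were higher and 2 lower at an adjusted p below 0.05 on each diet, where all tested genes gave 17.7% higher and 15.7% lower with the AhR-poor diet, and 16.9% and 18.4% with the I3C diet. A stricter rule asked for an adjusted p below 0.01 and at least a doubling or halving (log2 fold change past 1), and genes that met it are called differentially expressed. Dsg3 met it on the AhR-poor diet and Dsg3 and Dsc2 on the I3C diet, all higher, while this rule called 6.04% of all genes higher and 2.42% lower with the AhR-poor diet, and 3.69% and 5.29% with the I3C diet. The median log2 fold change of the 10 genes was -0.06 on the AhR-poor diet and 0.38 on the I3C diet, beside -0.004 and -0.036 over all tested genes. For a single gene, 4 libraries against 4 give a two-sided exact permutation p of 0.0286 at the least, and all 4 genes reached it on both diets because their groups did not overlap. Of all tested genes, 33% on the AhR-poor diet and 33.4% on the I3C diet had groups without overlap. With the fibroblast signal as a covariate, the AhR-poor estimates kept their signs (1.49 for Dsg3, 1.16 for Dsc2, -0.52 for Dsg1a and -0.78 for Dsg2) and none passed, at adjusted p values of 0.165 to 0.584, whereas all 4 still passed on the I3C diet. In the same fit 1130 of all 22155 genes passed on the AhR-poor diet, against 7394 without the covariate, and 7769 against 7828 on the I3C diet. This covariate, the mean log2 CPM of the fibroblast markers, did not overlap between vehicle (0.503 to 1.285) and papain (2.104 to 3.308) on the AhR-poor diet. There it and papain cannot be told apart. On the I3C diet it overlapped (-1.872 to -1.678 with vehicle and -2.263 to -1.437 with papain).

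Dsg3, the desmoglein of the lower epidermal layers and the antigen of pemphigus vulgaris, rose most among the desmogleins. On the AhR-poor diet it had 118, 122, 141 and 158 CPM in the 4 vehicle libraries and 268, 272, 288 and 312.5 CPM in the 4 papain libraries. On the I3C diet it had 113.2, 161, 188 and 305 CPM with vehicle and 379, 554, 557 and 668 CPM with papain. The highest vehicle library there, T108, still lay below the lowest papain library, T106. The log2 fold change was 1.08 (SE 0.24, adjusted p = 0.00281) on the AhR-poor diet and 1.49 (SE 0.24, adjusted p = 0.000201) on the I3C diet. These calls held without any single library, with an adjusted p of at most 0.00899.

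Dsc2, the desmocollin shared with simple epithelia, rose from the low level given above. It had 8.91, 9.47, 9.50 and 10.4 CPM with vehicle and 15.8, 18.3, 18.7 and 21.25 CPM with papain on the AhR-poor diet. On the I3C diet the vehicle libraries had 8.76, 8.79, 9.15 and 12.6 CPM and the papain libraries 20.5, 26.5, 29.6 and 43.5 CPM. Every papain library exceeded every vehicle library of its diet, and the 4 papain libraries of the I3C diet were the more widely spread. The log2 fold change was 0.95 (SE 0.18, adjusted p = 0.000507) and 1.61 (SE 0.18, adjusted p = 1.89e-06) on the AhR-poor and the I3C diet. Without T103 or T105 the AhR-poor value also met the stricter rule.

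Dsg1a, the main Dsg1 copy and the cadherin of the upper layers, fell. On the AhR-poor diet it had 1349, 1746, 1764 and 2202 CPM with vehicle and 670.3, 1051, 1112 and 1169 CPM with papain. On the I3C diet it had 1455, 1554, 1755 and 1903 CPM with vehicle and 1011, 1148, 1344 and 1386 CPM with papain. The groups did not overlap on either diet, although the gap on the I3C diet was narrow. The log2 fold change was -0.82 (SE 0.17, adjusted p = 0.00118) on the AhR-poor diet and -0.45 (SE 0.17, adjusted p = 0.048) on the I3C diet. The I3C value was lost in 8 of 16 fits that left out a library, with T101, T102, T107, T109, T110, T111, T113 or T114, at an adjusted p of up to 0.13, and with RLE factors (0.0514) or a filter of 1 count in total (0.0842).

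Dsg2, the most widely expressed desmoglein, also fell. On the AhR-poor diet it had 37.9, 41.3, 45.2 and 47.4 CPM with vehicle and 22.1, 25.0, 25.5 and 27.6 CPM with papain. On the I3C diet it had 36.1, 44.3, 48.0 and 73.7 CPM with vehicle, the last again in T108, and 27.6, 31.1, 31.6 and 33.9 CPM with papain. Its log2 fold change was -0.78 (SE 0.16, adjusted p = 0.00112) and -0.70 (SE 0.16, adjusted p = 0.00205) on the AhR-poor and the I3C diet. Without T108 the I3C value was -0.46 and still passed. Dsg2 and Dsg3, neighbors on the chromosome, thus moved in opposite directions after papain.

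The other 6 genes did not pass on either diet. Dsc3, the most abundant desmocollin, had means of 1404 ± 152 CPM with papain against 1650 ± 290 with vehicle on the AhR-poor diet, and of 2095 ± 168 against 1718 ± 344 on the I3C diet (SD, n = 4). Dsc1 had 380 ± 92.5 against 535 ± 229 CPM on the AhR-poor diet and 570 ± 33.5 against 436 ± 117 CPM on the I3C diet. Dsg1b, the second Dsg1 copy, had 125 ± 29.6 against 158 ± 49.0 and 201 ± 18.4 against 155 ± 36.8 CPM. These 3 means lay lower after papain on the AhR-poor diet and higher on the I3C diet, in each case with overlapping libraries. Cdsn had 108.3 ± 26.6 against 76.8 ± 23.0 CPM on the AhR-poor diet and 49.98 ± 29.7 against 34.4 ± 15.7 CPM on the I3C diet, where 1 papain library, T106, had 94.3 CPM and the other 3 had at most 36.9. Dsg1c and Dsg4 were too low for a difference of this size to be seen, with 16 to 39 and 0 to 32 counts in a papain library.

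**Figure D2:**
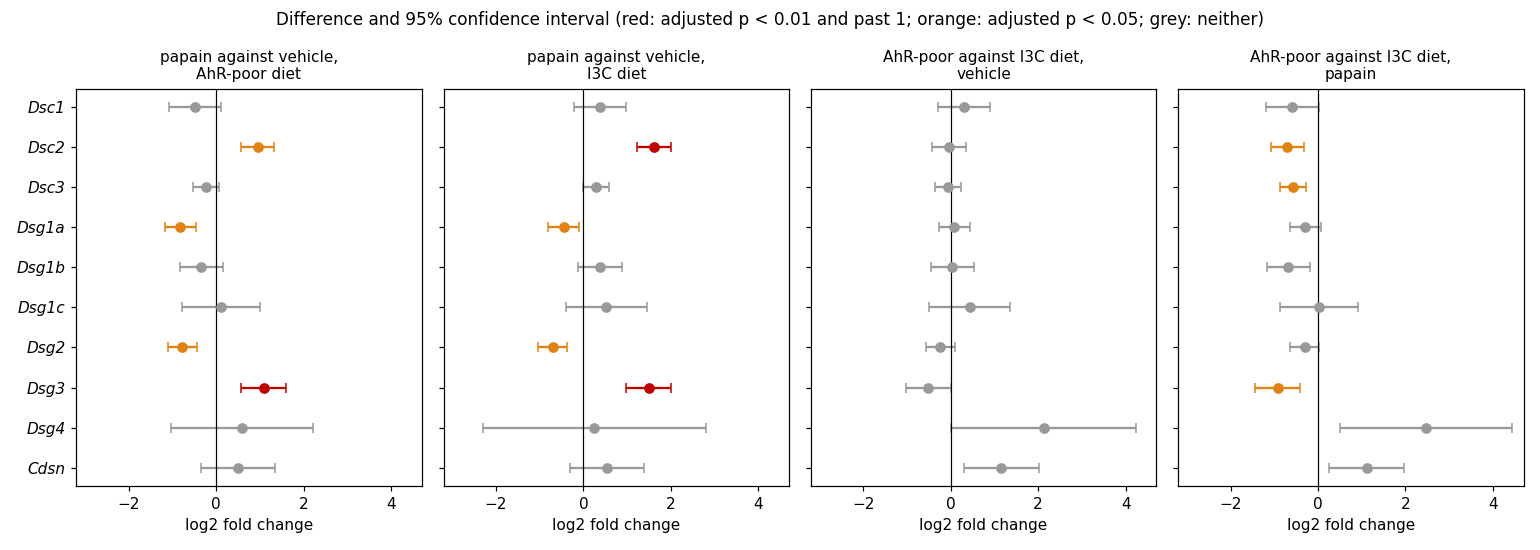
The log2 fold change (x axis) of each gene (y axis) in 4 comparisons, with 95% confidence intervals from the edgeR fit. Dsg3 and Dsc2 lay above 0 and Dsg1a and Dsg2 below 0 after papain on both diets, no gene passed between the diets with vehicle, and Dsc2, Dsc3 and Dsg3 were lower on the AhR-poor diet with papain; the intervals of Dsg4 are the widest.

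The opposite movements changed the makeup of the desmogleins. Summed per kilobase over the 6 genes, Dsg3 made up 5.24% ± 0.916 (SD, n = 4) of desmoglein transcript with vehicle and 16.8% ± 3.95 with papain on the AhR-poor diet, and 7.58% ± 3.50 and 22.4% ± 5.40 on the I3C diet. Its share lay between 4.31% and 6.11% with vehicle and 13.96% and 22.4% with papain on the AhR-poor diet, and between 5.05% and 12.7% and 15.8% and 28.7% on the I3C diet. Dsg1a made up 82.8% ± 1.0 and 69.4% ± 4.20 on the AhR-poor diet and 80.2% ± 4.46 and 61.9% ± 6.55 on the I3C diet, so it remained the leading desmoglein in every library. The level of Dsg3 relative to Dsg1a, per kilobase, went from 0.0634 ± 0.0114 to 0.245 ± 0.0740 and from 0.0965 ± 0.0508 to 0.372 ± 0.130. The shares were not tested and no group overlapped on its own diet.

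Among the Dsg1 copies, Dsg1a made up 88.8% ± 1.33 with vehicle and 84.7% ± 1.60 with papain on the AhR-poor diet, and 88.3% ± 1.69 and 80.7% ± 3.21 on the I3C diet. Dsg1b accounted for nearly all the rest and Dsg1c for at most 0.110% in any library. Since reads of the copies may have been exchanged, these shares carry the uncertainty given above. Among the desmocollins, Dsc3 made up 68.4% to 81.7% and Dsc1 17.7% to 31.2% in a library, and both overlapped between the groups. The small share of Dsc2 was higher with papain without overlap, at 0.349% to 0.580% with vehicle and 0.830% to 1.62% with papain over both diets.

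**Figure D3:**
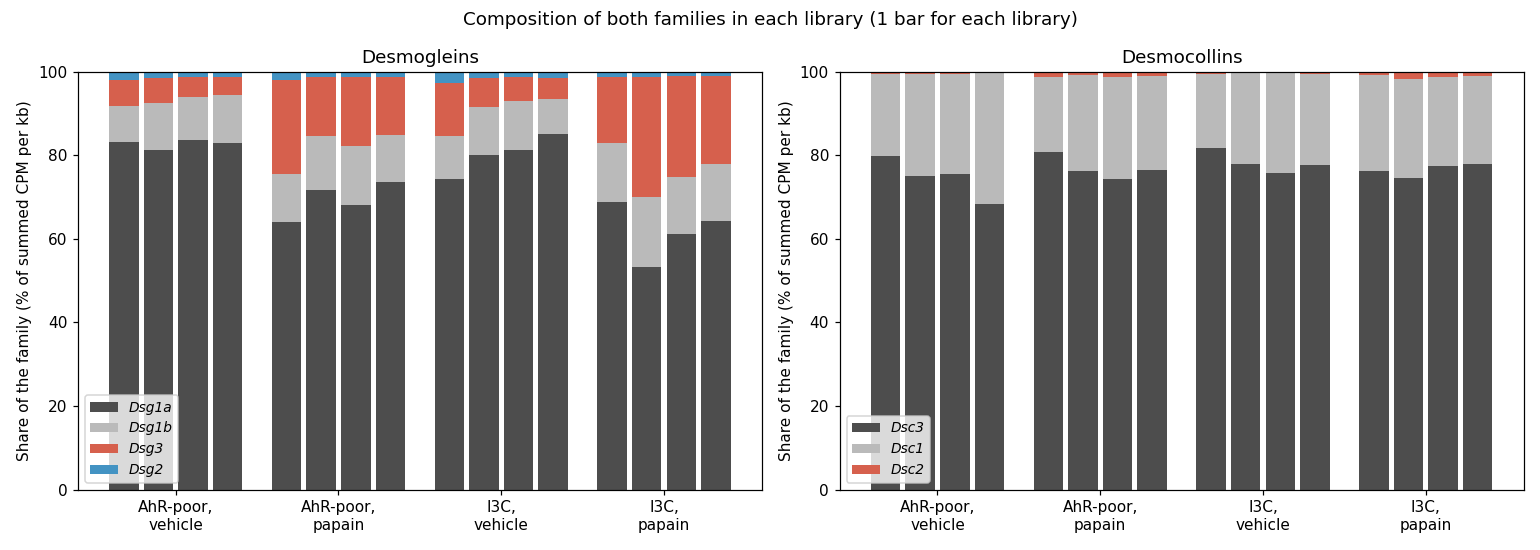
Share of each gene in the summed CPM per kb of its family (y axis, percent), 1 bar for each library, by group (x axis). The Dsg3 segment is 4.31% to 12.7% with vehicle and 13.96% to 28.7% with papain; Dsg1c and Dsg4 are too small to be drawn, and the Dsc3 segment is 68.4% to 81.7% over all groups.

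Between the diets, no gene of the 10 passed with vehicle at an adjusted p below 0.05 by edgeR or by DESeq2, while 2 of 10 had an unadjusted p below 0.05 (Dsg4 and Cdsn). Across all tested genes 2.98% had higher and 0.0993% had lower levels with the AhR-poor diet. With papain, 3 of the 10 genes, Dsc2, Dsc3 and Dsg3, had lower levels with the AhR-poor diet and none had higher ones, where 8.36% of all genes were lower and 12.3% higher. None was differentially expressed under the stricter rule, nor was any of the 10 by DESeq2, against 0.0993% of all genes lower and 7.15% higher. These comparisons use the papain libraries that also enter the papain comparisons above, so their values are not independent of those.

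With papain, Dsg3 had a log2 difference of -0.92 (SE 0.24, adjusted p = 0.0138) between the AhR-poor and the I3C diet, at a mean of 285 ± 20.0 against 540 ± 120 CPM (SD, n = 4), with the highest AhR-poor library at 312.5 CPM and the lowest I3C library at 379. Dsc3 differed by -0.58 (SE 0.14, adjusted p = 0.00736). Its 4 AhR-poor libraries had 1179, 1444, 1488 and 1505 CPM and its 4 I3C libraries had 1909, 2046, 2112 and 2312 CPM, without overlap. Dsc2 differed by -0.70 (SE 0.18, adjusted p = 0.00896), and its highest AhR-poor library (21.25 CPM) exceeded its lowest I3C library (20.5 CPM). The 3 calls held without any single library, although Dsc2 moved to -0.45 (adjusted p = 0.0338) without T113, and Dsc2 missed the threshold when only the 8 libraries compared were fitted (adjusted p = 0.0504).

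Dsg1b and Dsc1, genes of the upper layers, were also without overlap between the diets with papain and yet did not pass across all genes. Dsg1b had 84.2 to 152 CPM on the AhR-poor diet and 179 to 223 CPM on the I3C diet, a log2 difference of -0.68 (SE 0.23, adjusted p = 0.0529, and 0.014 with DESeq2). Dsc1 had 243 to 445 and 538 to 608 CPM, a log2 difference of -0.58 (SE 0.28, adjusted p = 0.165). Dsg1a, by contrast, overlapped between the diets, at 670.3 to 1169 and 1011 to 1386 CPM. In all, 4 of the 10 genes (Dsc1, Dsc3, Dsg1b and Dsg3) had papain libraries on the AhR-poor diet that were all below those on the I3C diet (two-sided exact permutation p = 0.0286 each), where 12.3% of all tested genes did. When the mean log2 CPM of the fibroblast markers was held as a covariate, no gene of the 10 passed between the diets, but neither did any of the 22155 genes (0, against 4576 with papain without the covariate), so the loss is not particular to these genes. The estimates of Dsc3 and Dsg3 with papain were then 0.34 and 0.02. The covariate itself did not overlap between the diets (0.503 to 3.31 against -2.26 to -1.44), so it and the diet cannot be told apart.

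Cdsn and Dsg4 lay the other way, higher on the AhR-poor diet. Cdsn had 55.6, 62.4, 82.2 and 106.8 CPM on the AhR-poor diet and 18.8, 28.6, 34.2 and 55.9 CPM on the I3C diet with vehicle. With papain it had 72.9, 104.3, 123 and 134 CPM on the AhR-poor diet and 31.8, 36.9, 36.9 and 94.3 CPM on the I3C diet. The 2 diets overlapped under each injection by 1 library. The log2 difference was 1.16 (SE 0.40, adjusted p = 0.19) with vehicle and 1.11 (SE 0.39, adjusted p = 0.0629) with papain, neither of which passed (DESeq2 gave 0.0243 with papain), and 1.14 (SE 0.28, adjusted p = 0.0124) as the mean of both injections, which passed at any fold. The papain value passed at any fold in 2 of 16 fits that left out a library, and its adjusted p was up to 0.169 (without T115). Without T106, the I3C library at 94.3 CPM, it was 1.63 (adjusted p = 0.00423) and met the stricter rule, the only fit of the 16 to do so. With the fibroblast covariate the Cdsn estimates turned to -0.21 with vehicle, -1.40 with papain and -0.81 over both, and none passed. Estimates for other genes of the granular and cornified layers, where Cdsn is made, were mostly above 0 for the AhR-poor diet as the mean of both injections (7 of 8 positive, median log2 difference 0.80), with Ivl (0.85, adjusted p = 0.00863), Hrnr (1.20, adjusted p = 0.0355) and Flg2 (1.54, adjusted p = 0.017) passing, and Tgm3 was lower (-0.28, adjusted p = 0.0423). Of all genes, 11.9% were higher and 6.37% lower over both injections. None of the 8 passed with vehicle, and only Ivl passed with papain (0.92, adjusted p = 0.0357). Their summed levels overlapped between the AhR-poor and the I3C diet, at 858 to 1144 against 865 to 1271 CPM with vehicle and 384 to 672 against 454 to 593 CPM with papain. The part of these genes in the Cdsn result was not tested.

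Dsg4 counts in the 16 libraries show how thin its evidence is. The AhR-poor libraries had 2, 9, 13 and 15 counts with vehicle and 1, 10, 12 and 32 with papain, and the I3C libraries had 0, 0, 4 and 4 with vehicle and 0, 1, 4 and 5 with papain. The diets overlapped under both injections. The log2 difference as the mean of both injections was 2.30 (SE 0.68, adjusted p = 0.0266), and it was lost in 5 of 16 fits that left out a library (T100, T102, T104, T109 or T113), at an adjusted p of up to 0.0652. The 10 hair markers measured, in whose tissue Dsg4 is known, summed to 21.5 to 48.2 CPM with vehicle and 19.7 to 66.9 CPM with papain on the AhR-poor diet, and to 23.0 to 32.4 and 19.8 to 28.0 CPM on the I3C diet. With papain, 9 of the 10 had positive log2 differences for the AhR-poor diet (median 2.61), of which Krt33a (3.32, adjusted p = 0.0234) and Lef1 (1.80, adjusted p = 0.0138) passed, and as the mean of both injections 10 of 10 were positive (median 1.41) and Lef1 passed (1.41, adjusted p = 0.00726). Their part in the Dsg4 result was not tested. As the mean of both injections, Cdsn and Dsg4 (2 of 10) were higher and 2 were lower (Dsg3 at -0.72, SE 0.17, adjusted p = 0.00856, and Dsc3 at -0.32, SE 0.10, adjusted p = 0.0342, lost at up to 0.0633 without T100, T102, T108, T109, T110 or T115, and at 0.0819 with library size only) with the AhR-poor diet, where 11.9% of all genes were higher and 6.37% lower.

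Whether the papain response itself differed between the diets was tested as an interaction, and no gene of the 10 passed by edgeR or by DESeq2. An unadjusted p below 0.05 was reached by 4 of them, Dsc1, Dsc2, Dsc3 and Dsg1b, and 0.329% of all tested genes passed at an adjusted p below 0.05 in either direction. The changed sign of the Dsc1, Dsc3 and Dsg1b means between the diets is therefore a description of group means. Over both diets together, the mean papain effect was 1.28 (SE 0.13, adjusted p = 2.22e-07) for Dsc2, 1.29 (SE 0.17, adjusted p = 1.89e-05) for Dsg3, -0.63 (SE 0.12, adjusted p = 0.000311) for Dsg1a and -0.74 (SE 0.11, adjusted p = 3.62e-05) for Dsg2, against 21.9% of all genes higher and 23.4% lower. With the fibroblast covariate Dsg1a no longer passed over both diets (-0.49, adjusted p = 0.108), and the other 3 did. The limit of this covariate on the AhR-poor diet, given above, holds here too.

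Across the 16 libraries, Dsc1 and Dsg1b followed each other most closely of any pair, with a Pearson's r of log2(CPM + 0.5) of 0.953, and of 0.971 when each group's mean was removed. Dsc3 joined them (r = 0.845 with Dsc1 and 0.915 with Dsg1b; 0.851 and 0.862 with group means removed), although its protein belongs to lower layers. Dsg1a was closer to them within groups, at 0.817 with Dsc1 against 0.540 over all libraries. The second set was Dsc2 and Dsg3, with r = 0.947, or 0.749 within groups. Dsg2 and Dsg3 had r = -0.397 over all libraries and 0.778 with group means removed, where T108 was high for both. The relation did not hold in every group, since T107 had the highest Dsg3 and the lowest Dsg2 of the AhR-poor papain libraries. Cdsn followed no cadherin above 1 CPM over all libraries, with r from -0.590 (Dsg2) to 0.0877 (Dsc1). With group means removed it had 0.639 with Dsg1a, 0.514 with Dsc1, 0.503 with Dsg1b and 0.213 with Dsc3. It had -0.533 with Dsg3, -0.515 with Dsc2 and -0.431 with Dsg2 in the same way. These values are descriptions over 16 libraries that share groups, diets and injections.

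**Figure D4:**
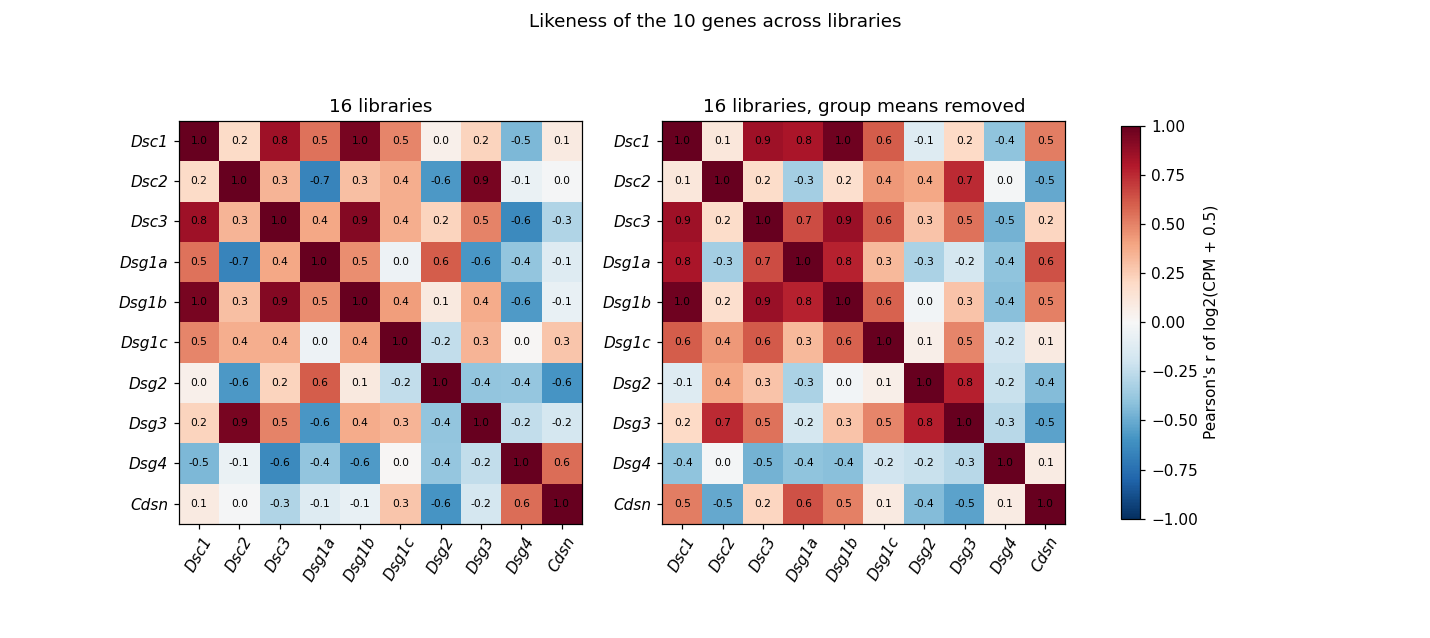
Pearson's r of log2(CPM + 0.5) between each pair of the 10 genes over 16 libraries (color and number), with group differences left in (left) and each group's mean removed (right). Dsc1, Dsc3 and Dsg1b form the closest set in both, and Dsg2 with Dsg3 turns from -0.4 to 0.8.

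Of 13025 genes with a mean of at least 1 CPM, the most alike in pattern over the 16 libraries was Pkp1, a plakophilin, for Dsg1b (r = 0.971), Fam83b for Dsc3 (0.985), Atp6v0a4, a subunit of the vacuolar proton pump, for Dsc1 (0.973), and Zfp185 for Dsg1a (0.976). For Dsg3 it was Ipo7, a nuclear import receptor (0.990), for Dsg2 Mier1 (0.962), and for Cdsn Ereg, the growth factor epiregulin (0.964). The closest of the other 9 genes ranked 3rd for Dsc1 and 2nd for Dsg1b, but 73rd for Dsg3.

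Other desmosome genes, called the plaque list here, were compared as a list of 8. With papain, 4 of them had lower levels with the AhR-poor diet, as did 3 of the 10 cadherins and corneodesmosin, where 8.36% of all genes were lower and 12.3% higher, and with the fibroblast covariate none of the 22155 genes passed. They were desmoplakin (Dsp, log2 difference -0.62, SE 0.14, adjusted p = 0.00359), plakoglobin (Jup, -0.39, adjusted p = 0.0236) and plakophilins 1 and 3 (Pkp1, -0.49, adjusted p = 0.0163, and Pkp3, -0.24, adjusted p = 0.0327), and the list median was -0.23. Dsp had means of 4525 ± 707 against 6972 ± 632 CPM (SD, n = 4). Pkp2, the plakophilin of heart and simple epithelia, was the exception, higher on the AhR-poor diet with vehicle (1.53, SE 0.33, adjusted p = 0.00994) and with papain (1.17, SE 0.31, adjusted p = 0.012), at means of 0.528 to 1.67 CPM. After papain, periplakin (Ppl) fell on the AhR-poor diet (-0.49, adjusted p = 0.0201) and Pkp3 rose on the I3C diet (0.31, adjusted p = 0.003), and the other 6 genes did not pass on either diet.

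Of the 8 genes for corneodesmosome proteolysis, 4 rose and none fell after papain on the AhR-poor diet, and 3 rose and 1 fell on the I3C diet, where 17.7% and 16.9% of all genes rose and 15.7% and 18.4% fell. Matriptase (St14), a membrane protease that starts the kallikrein cascade, rose by 0.44 (SE 0.08, adjusted p = 0.000203) and 0.67 (SE 0.08, adjusted p = 1.46e-06). Prostasin (Prss8) rose by 0.38 and 0.39 (adjusted p = 0.0134 and 0.0124) and cathepsin D (Ctsd) by 0.24 and 0.25 (adjusted p = 0.0412 and 0.0359). Cathepsin L (Ctsl) rose on the AhR-poor diet by 0.45 (adjusted p = 0.0142). The gene that fell on the I3C diet, Klk14, was near the floor in every group, at 0 to 0.114 CPM. The kallikreins Klk5 and Klk7 and their inhibitor Spink5, at means of 80.5 to 116 (Klk5), 71.1 to 133 (Klk7) and 144 to 251 CPM (Spink5), did not pass after papain on either diet. With papain, Ctsl (0.42, adjusted p = 0.0313) and Klk14 (2.86, adjusted p = 0.0364) were higher on the AhR-poor diet and none was lower. Of all genes, 12.3% were higher and 8.36% lower there. As the mean of both injections only Klk7 passed, higher on the AhR-poor diet (0.71, adjusted p = 0.034), where 11.9% of all genes were higher. With vehicle none of the list passed.

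Of the 8 adherens junction genes, P-cadherin (Cdh3), the classical cadherin of basal cells, rose by 0.92 (SE 0.12, adjusted p = 1.33e-05) on the AhR-poor diet and by 1.15 (SE 0.12, adjusted p = 6.2e-07) on the I3C diet, and alpha-catenin (Ctnna1) rose by 0.26 and 0.58 (adjusted p = 0.025 and 2.92e-05). E-cadherin (Cdh1) and Nectin1 rose on the I3C diet (0.28 and 0.32, adjusted p = 0.0381 and 0.00345), so 2 and 4 of the 8 were higher and none was lower. Of all genes, 17.7% and 16.9% rose and 15.7% and 18.4% fell after papain. With papain, these 4 genes, Cdh3 (-0.46), Cdh1 (-0.32), Ctnna1 (-0.30) and Nectin1 (-0.23), had lower levels with the AhR-poor diet, at adjusted p values of 0.0105 to 0.0491. Of all genes, 8.36% were lower and 12.3% higher in that comparison, and with the fibroblast covariate none of the 22155 genes passed. All 3 lists were chosen with earlier results of these data known, and the marker levels given above also differed between the libraries compared.

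**Figure D5:**
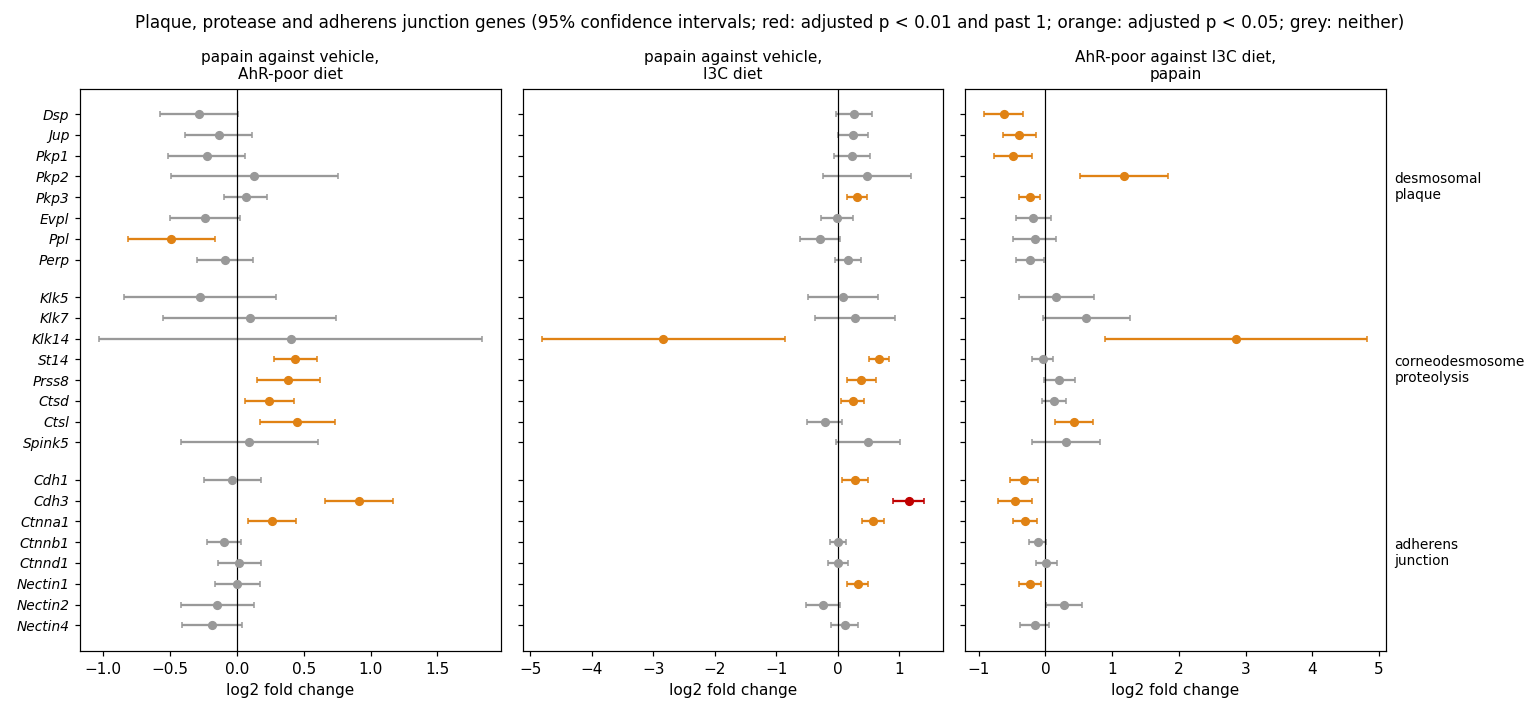
The log2 fold change (x axis, its own scale in each panel) of 24 plaque, protease and adherens junction genes (y axis) after papain on each diet and between the diets with papain, with 95% confidence intervals. St14, Prss8, Ctsd, Cdh3 and Ctnna1 lay above 0 after papain on both diets, and Dsp, Jup, Pkp1, Pkp3, Cdh1, Cdh3, Ctnna1 and Nectin1 lay below 0 between the diets with papain. Pkp2, Ctsl and Klk14 lay above 0 between the diets with papain.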

How the data were processed

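RNA of epidermal cells from 16 mice was sequenced by the authors (TruSeq Stranded mRNA, paired reads of 100 bases) and aligned with STAR to mm10. The values the authors deposited are raw counts per gene and library, without normalization; the counting tool, annotation release and strand setting are not given in the sources used here. Of 50600 identifiers, 50376 matched a symbol in GENCODE M21 and 224 did not. Groups came from the labels. The members and lists were chosen with earlier results of these data known.

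The 22155 genes whose counts summed to 10 or more were fitted in edgeR 4.0.16 (R 4.3.3) with TMM factors, a mean for each group and the robust quasi-likelihood F test, with Benjamini-Hochberg adjustment over all genes. Differentially expressed means that the adjusted p was below 0.01 with a log2 fold change past 1, after the study's methods, and genes passing at any fold had an adjusted p below 0.05. CPM are counts divided by the TMM-scaled library total, times 1000000, and CPM per kb divides by merged exon length. Single genes were compared by exact permutation of log2(CPM + 0.5). Named genes are the 10 members, the genes of the plaque, proteolysis and adherens lists, the non-member gene most like each member with a mean of at least 1 CPM, and markers where a list level is given. The fit was tested on simulated data. Alternatives were the Wald test of DESeq2 1.42.0, RLE factors, library size without factors, filterByExpr, a minimum of 1 count in total or of 10 in every library, only the libraries compared, no robust step, the fibroblast covariate, and leaving out each library. Differences are estimated with standard errors from 4 libraries a group; that the animals were separate comes from the study's methods. No protein sequence and no cadherin promoter sequence was used here. The gene most alike to Dsc2 in pattern is not reported here.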

Additional observations from a re-analysis of the deposited data

Results flagged for a closer look

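In each of the 40 groups of 4 libraries (10 genes in 4 groups), the distance of the outermost library to its neighbor was set against the range of the group, and 3 groups passed the 95% critical value of Dixon's test, where chance flags about 1 group in 20. Cdsn in I3C papain library T106 had 94.3 CPM, far above the other 3 at 31.8 to 36.9 CPM. Dsc2 in I3C vehicle library T108 had 12.6 CPM, above the other 3 at 8.76 to 9.15 CPM. Dsc1 in AhR-poor papain library T104 had 243 CPM, below the other 3 at 414 to 445 CPM. No difference between the papain responses of both diets met the threshold of the interaction for any of the 10 genes.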

How the results depend on the processing

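No paired analysis was possible because no replicate code occurs in more than 1 group. All 40 group levels moved by less than 1 SD when only library size was used. The papain counts on the I3C diet and over both diets stayed within 1.5 times their value in every setting. On the AhR-poor diet, holding the fibroblast signal as a covariate left 0 genes passing at any fold (0 differentially expressed), against 4 and 1, while over all 22155 genes 1130 passed (308 differentially expressed), against 7394 and 1874. The same covariate left 0 genes passing between the diets with papain and 0 over both injections, as it did for all 22155 genes (from 4576 and 4037). Among the differences with an adjusted p below 0.2 in the main fit, it turned the sign of 10 estimates: between the diets, Cdsn with vehicle (-0.21), with papain (-1.40) and over both (-0.81), Dsc1 (0.12), Dsc3 (0.34) and Dsg3 (0.023) with papain, Dsc2 (0.00955), Dsc3 (0.38) and Dsg3 (0.00945) over both, and Cdsn after papain over both diets (-0.033). This covariate takes different values on the 2 diets, and with vehicle and papain on the AhR-poor diet, so these fits do not separate it from diet or, on that diet, from papain. Between the diets with papain, 3 genes passed, and 5 with filterByExpr, 5 without the robust step, 5 with only the libraries compared and 6 with DESeq2. Over both injections, 0 were differentially expressed, against 1 with filterByExpr, 1 with at least 10 counts in every library, 1 without the robust step (each time Cdsn) and 2 with DESeq2 (Cdsn and Dsg4), and 4 passed at any fold, against 2 with at least 10 counts in every library, a filter that removed Dsg4 and Dsg1c. Leaving out 1 library gave 1 to 2 differentially expressed genes after papain on the AhR-poor diet (2 without T103 or T105, Dsc2 joining), 0 to 2 between the diets with papain (2 without T106, Cdsn and Dsg3), 0 to 1 over both injections (1 without T105, Dsg4, or without T106 or T110, Cdsn), and 2 to 5 passing at any fold over both injections (2 without T100, T102 or T109, 5 without T107). Of 40 differences with an adjusted p of at least 0.2, none passed in any of 969 fits, and 23 changed sign in at least 1. The precision of the low genes, Dsg4 and Dsg1c, is set by their counts.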

Other observations

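The layer markers of the epidermis were measured beside the cadherins. Of 8 granular and cornified layer genes, 4 fell after papain on the AhR-poor diet, among them the transglutaminase Tgm3 (log2 fold change -1.09, adjusted p = 5.92e-06) and the protease Casp14 (-0.80, adjusted p = 0.0178), and 2 fell on the I3C diet, Tgm3 (-1.12, adjusted p = 2.52e-06) and the envelope protein Ivl (-0.89, adjusted p = 0.0249), where 15.7% and 18.4% of all tested genes fell. Their summed level was 858 to 1144 CPM with vehicle and 384 to 672 CPM with papain on the AhR-poor diet, and 865 to 1271 and 454 to 593 CPM on the I3C diet. Cdsn, a product of the same layer, had higher means after papain on both diets and did not pass. After papain, 2 of 7 basal markers fell and 0 rose on the AhR-poor diet, and 3 fell and 1 rose on the I3C diet. Of all tested genes, 15.7% and 18.4% fell and 17.7% and 16.9% rose. Krt15, a keratin of basal cells, fell on both diets (-1.38, adjusted p = 1.13e-05, and -1.93, adjusted p = 2.37e-07). Itgb4 was the basal marker that rose on the I3C diet (0.32, adjusted p = 0.0363). Dsg3 and Cdh3, which belong to the lower layers, rose on both diets. Between the diets with papain, 4 of 7 basal markers were lower on the AhR-poor diet, Itga6 (-0.47, adjusted p = 0.0078), Trp63 (-0.39, adjusted p = 0.00857), Itgb4 (-0.42, adjusted p = 0.0152) and Col17a1 (-0.46, adjusted p = 0.0327), and Krt15 was higher (0.80, adjusted p = 0.00279), where 8.36% of all genes were lower and 12.3% higher.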
